A study of Mus musculus with 6 samples.

Results

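The 10 genes described here are the lipoxygenases, the enzymes that act directly after them and the acid lipases that keratinocytes switch on as they cornify. They were chosen by name: Alox12b, Aloxe3, Alox12, Alox12e, Alox8, Sdr9c7, Ephx3, Lipn, Lipk and Lipm, 10 of the 49386 gene symbols in the table. Earlier results of these data were known when these genes and the gene lists below were chosen. The values are RNA-seq FPKM, which divide the fragments of a gene by its length and by the size of the library, in total RNA from C57BL/6 mouse epidermis at E19.5. There were 3 libraries with the genotype Rictor -/- (263, 265 and 266, titled ricEKO) and 3 control libraries (261, 262 and 264). Rictor is the subunit that sets mTOR complex 2 apart from complex 1. The design compares mRNA levels between the epidermis of these genotypes. The labels name no Cre driver or floxed allele, do not give the genotype of the controls any further, and do not say whether each library is a separate animal. P-values therefore measure only how these libraries scatter, which may be technical in part.

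In the granular layer, linoleate carried at the end of a very long-chain acylceramide is oxygenated by Alox12b, an R-specific lipoxygenase. Aloxe3 isomerises the hydroperoxide to an epoxy alcohol, Sdr9c7 dehydrogenates that alcohol to an epoxy ketone that can bind protein, and Ephx3 can open the epoxide to a triol. Loss of ALOX12B, ALOXE3 or SDR9C7 in people causes congenital ichthyosis, and mice without Alox12b die after birth of water loss. Lipn, Lipk and Lipm belong to the acid lipase family and are expressed in the uppermost living layers, and LIPN mutations cause a late-onset human ichthyosis.

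Rictor itself stood at 6.83, 7.04 and 6.86 FPKM in libraries 263, 265 and 266, against 5.63, 6.02 and 4.37 FPKM in controls 261, 262 and 264. It was 0.33 ± 0.11 higher on the log2 scale (limma adjusted p = 0.0694, not called). It was thus not lower in the libraries labelled Rictor -/-, and a whole-gene value can hold reads from exons outside a deletion, so it does not check the labels. Directions below are those of the libraries labelled knockout. The FPKM of a library summed to between 609375 and 672925. Read steps at low values gave relative depths of 1 to 1.21, with control 261 the shallowest. Control 264 stood apart from the others in its length trend: across tested genes, which are not independent replicates, Spearman's rho between gene length and the deviation from the gene mean was 0.173 to 0.263 in the knockout-labelled libraries, -0.00709 and 0.0028 in controls 261 and 262, and -0.358 in control 264. Every knockout-labelled value also lay above every control value, so the length trend ran with the labels. Markers of suprabasal keratinocytes were abundant in every library, with 4 spinous markers (Krt1, Krt10, Dsg1a, Dsc1) summing to 21260 to 22910 FPKM in knockout-labelled and 23070 to 23670 FPKM in control libraries. The endothelial markers Pecam1, Cdh5 and Kdr were near 0, together at 0.447 to 0.634 FPKM in knockout-labelled and 0.327 to 0.627 FPKM in control libraries.

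Of the 10 genes, 6 fell in the knockout-labelled libraries: the lipoxygenases Alox12 and Alox12e, the dehydrogenase Sdr9c7 and all 3 lipases. The remaining lipoxygenases, Alox12b and Aloxe3, and the hydrolase Ephx3 did not pass the test, and Alox8 was too low to enter it. The test was limma on log2(FPKM + 1) over the 13500 genes that averaged 1 FPKM or more in one of the groups, with Benjamini-Hochberg adjusted p under 0.05 as the threshold, and 9 of the 10 genes entered it, each above 1 FPKM in both groups. Of those 9, 6 were lower and 0 higher (0 also at an unadjusted p under 0.05). Among all tested genes 15.6% were called lower and 7.91% higher. The genes were chosen with earlier results of these data known, and their counts were not tested against these shares. In 6 of the 9 every knockout-labelled library lay below every control library, as in 29.2% of all tested genes, and in 0 did it lie above. The median log2 difference, knockout-labelled minus control, was -0.38 over the 9 genes and -0.06 over all tested genes. The higher calls made up 33.7% of all calls on the deposited scale. That share was 44.8% with libraries scaled to their median, 47.9% with a trimmed mean, 47.9% with quantiles and 50.8% when length and GC content were adjusted for. In bulk tissue, fewer cells of a type and less RNA per cell cannot be told apart.

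**Figure D1:**
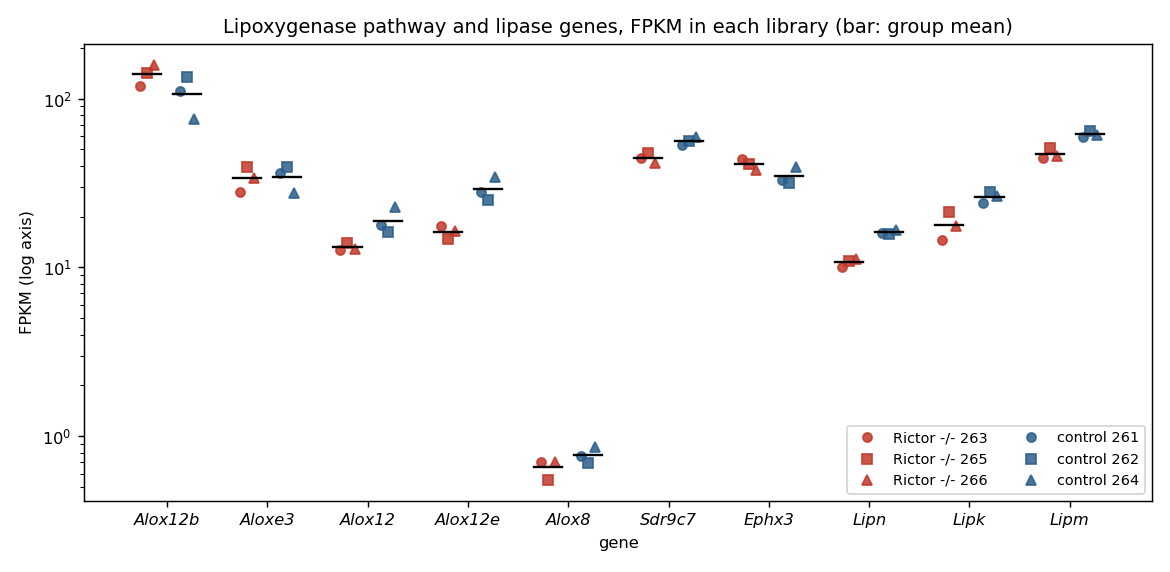
FPKM (log axis) of the 10 genes in each library, 3 labelled Rictor -/- in red and 3 control in blue, with a bar at each group mean. All 3 knockout-labelled points lie below all 3 control points for Alox12, Alox12e, Sdr9c7, Lipn, Lipk and Lipm, while the groups overlap for Alox12b, Aloxe3, Alox8 and Ephx3.

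The order of the genes by level, per transcript length in FPKM, was led in both groups by Alox12b, with a mean of 140 FPKM in knockout-labelled and 107 FPKM in control libraries, and closed by Alox8, at 0.653 FPKM in knockout-labelled and 0.773 FPKM in control libraries. In the knockout-labelled libraries it ran Alox12b, Lipm, Sdr9c7, Ephx3, Aloxe3, Lipk, Alox12e, Alox12, Lipn and Alox8. There the ranges of Lipm and Sdr9c7, of Sdr9c7 and Ephx3, of Ephx3 and Aloxe3 and of Lipk and Alox12e overlapped over the libraries. Within each of these 3 libraries, Sdr9c7 lay above Ephx3 and Ephx3 above Aloxe3. In the controls Alox12e (mean 29.0 FPKM) stood ahead of Lipk (26.3 FPKM), and the ranges of Ephx3 and Aloxe3, of Aloxe3 and Alox12e, of Alox12e and Lipk and of Alox12 and Lipn overlapped.

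Alox12b (ENSMUSG00000032807, GRCm38 chromosome 11, 69156989 to 69169792, plus strand), the lipoxygenase that starts the acylceramide pathway, stood at 119, 141 and 159 FPKM in libraries 263, 265 and 266, against 111, 133 and 76.0 FPKM in controls 261, 262 and 264. The groups overlapped, because control 262 lay above library 263, and the lowest value of all was that of control 264. The mean was 140 ± 19.9 FPKM in knockout-labelled and 107 ± 28.9 FPKM in control libraries (SD, n = 3 each). The log2 difference was 0.41 ± 0.21 (SE), with a 95% interval of -0.09 to 0.91 (limma adjusted p = 0.1995). Without control 264 it was 0.19 ± 0.14 (limma adjusted p = 0.355).

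Aloxe3 (ENSMUSG00000020892, chromosome 11, 69125896 to 69149115, plus strand), the isomerase of the Alox12b product, stood at 28.0, 39.3 and 33.7 FPKM in libraries 263, 265 and 266, against 36.2, 39.5 and 27.7 FPKM in controls 261, 262 and 264. Both groups covered nearly the same range. The log2 difference was -0.03 ± 0.16, with a 95% interval of -0.42 to 0.36 (limma adjusted p = 0.910), and its sign depended on the scaling.

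Within a library the ratio of these consecutive enzymes does not depend on scaling. Alox12b was 4.24, 3.59 and 4.71 times Aloxe3 in FPKM in libraries 263, 265 and 266, against 3.07, 3.38 and 2.74 times in controls 261, 262 and 264. Every knockout-labelled library lay above every control. On the log2(FPKM + 1) scale the ratio averaged 2.02 ± 0.19 in knockout-labelled and 1.58 ± 0.15 in control libraries (SD, n = 3 each), a difference of 0.44 (exact permutation test, two-sided p = 0.10, the smallest that 3 against 3 allow). Adjusted over the 11 ratios computed, p was 0.157. Without control 264 the difference was 0.36.

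Sdr9c7 (ENSMUSG00000040127, chromosome 10, 127898518 to 127911761, plus strand), the dehydrogenase of the epoxy alcohol, stood at 44.6, 47.7 and 41.7 FPKM in libraries 263, 265 and 266, against 53.0, 56.0 and 59.3 FPKM in controls 261, 262 and 264. The groups did not overlap. It fell by 0.32 ± 0.08 on the log2 scale (limma adjusted p = 0.0261), to 0.796 times the control mean. The call was lost without library 263 or 266 or control 262 (limma adjusted p = 0.0868, 0.0977 and 0.0609) and with a sex term (0.0515), for which the sex of a library was read from Xist and Y-linked genes.

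Ephx3 (ENSMUSG00000037577, chromosome 17, 32183770 to 32189549, minus strand), the epoxide hydrolase, stood at 43.6, 40.9 and 37.6 FPKM in libraries 263, 265 and 266, against 32.8, 31.5 and 39.4 FPKM in controls 261, 262 and 264. The overlap came from control 264, which lay above library 266. The log2 difference was 0.23 ± 0.10, with a 95% interval of -0.01 to 0.48 (limma adjusted p = 0.142). Without control 264 it was 0.33 and passed (limma adjusted p = 0.0259), as it did after adjustment for length and GC content (0.38, adjusted p = 0.01605) and with array weights (0.28, adjusted p = 0.0104). Sdr9c7 and Ephx3 act on the same epoxy alcohol, and their means were 0.796 and 1.18 times those of the controls.

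**Figure D2:**
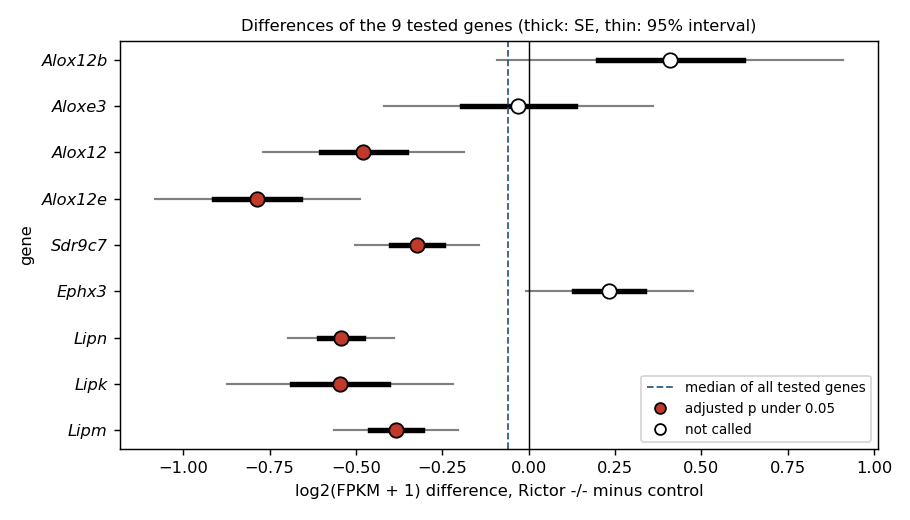
Difference in log2(FPKM + 1), Rictor -/- minus control, for the 9 tested genes, with SE (thick line) and 95% interval (thin line), n = 3 libraries per group. The filled points, Alox12, Alox12e, Sdr9c7, Lipn, Lipk and Lipm, passed an adjusted p of 0.05 and lie between -0.79 and -0.32, and the dashed line marks the median of all tested genes at -0.06.

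Of the other lipoxygenases, Alox12 and Alox8 act mainly on free fatty acids. Alox12e (ENSMUSG00000018907, chromosome 11, 70315610 to 70322628, minus strand), the epidermal S-type lipoxygenase of mice whose human counterpart is a pseudogene, stood at 17.6, 14.8 and 16.5 FPKM in libraries 263, 265 and 266, against 27.8, 24.9 and 34.3 FPKM in controls 261, 262 and 264. It had the largest difference of the 9 tested genes, and the groups did not overlap. The controls were more scattered (SD 4.80 FPKM) than the knockout-labelled libraries (SD 1.40 FPKM). It fell by 0.79 ± 0.12 on the log2 scale (limma adjusted p = 0.00781), to 0.562 times the control mean, and passed in all 20 alternative settings. Without control 264, the highest library for Alox12e, the fall was 0.66 (limma adjusted p = 0.008295).

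Alox12 (ENSMUSG00000000320, chromosome 11, 70241457 to 70255353, minus strand), the platelet-type lipoxygenase that mouse epidermis also makes, stood at 12.7, 13.9 and 12.9 FPKM in libraries 263, 265 and 266, against 17.8, 16.2 and 22.8 FPKM in controls 261, 262 and 264. The groups did not overlap, and control 264 was again the highest. It fell by 0.48 ± 0.12 on the log2 scale (limma adjusted p = 0.0337), to 0.696 times the control mean. The call was lost without library 263, 265 or 266 or control 261 (limma adjusted p = 0.105, 0.0726, 0.1002 and 0.0695), without a filter on low values (0.0795) and with a sex term (0.0799). Of the platelet markers Pf4, Itga2b and Gp1bb, the 3 of 6 that were tested, 0 passed (limma, 0 also at an unadjusted p under 0.05), with log2 differences of 0.15 to 0.19. All 6 together summed to 8.496 to 13.2 FPKM in knockout-labelled and 8.90 to 10.1 FPKM in control libraries, with Gp9 at or near 0 in every library.

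Alox8 (ENSMUSG00000020891, chromosome 11, 69183932 to 69197843, minus strand), an S-specific lipoxygenase that phorbol ester induces in mouse skin, stood at 0.706, 0.550 and 0.704 FPKM in libraries 263, 265 and 266, against 0.764, 0.697 and 0.859 FPKM in controls 261, 262 and 264. The groups overlapped at this low level and no test was made, since neither group reached a mean of 1 FPKM.

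The share of Alox12b in lipoxygenase mRNA was higher in each knockout-labelled library than in any control. Its share of the summed FPKM of the 5 lipoxygenases was 66.8%, 67.3% and 71.3% in libraries 263, 265 and 266, against 57.4%, 62.1% and 47.0% in controls 261, 262 and 264. The groups did not overlap (exact permutation test, two-sided p = 0.10, the smallest possible), and without control 264 the difference in means was 8.73 percentage points, against 13.0 with it. The sum of the 5 genes overlapped between groups, at 178, 210 and 222 FPKM in the knockout-labelled libraries 263, 265 and 266 and 193, 215 and 162 FPKM in controls 261, 262 and 264. The sum without Alox12b did not, at 63.8 ± 4.81 FPKM in knockout-labelled and 83.1 ± 2.25 FPKM in control libraries (SD, n = 3 each; exact permutation p = 0.10).

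**Figure D3:**
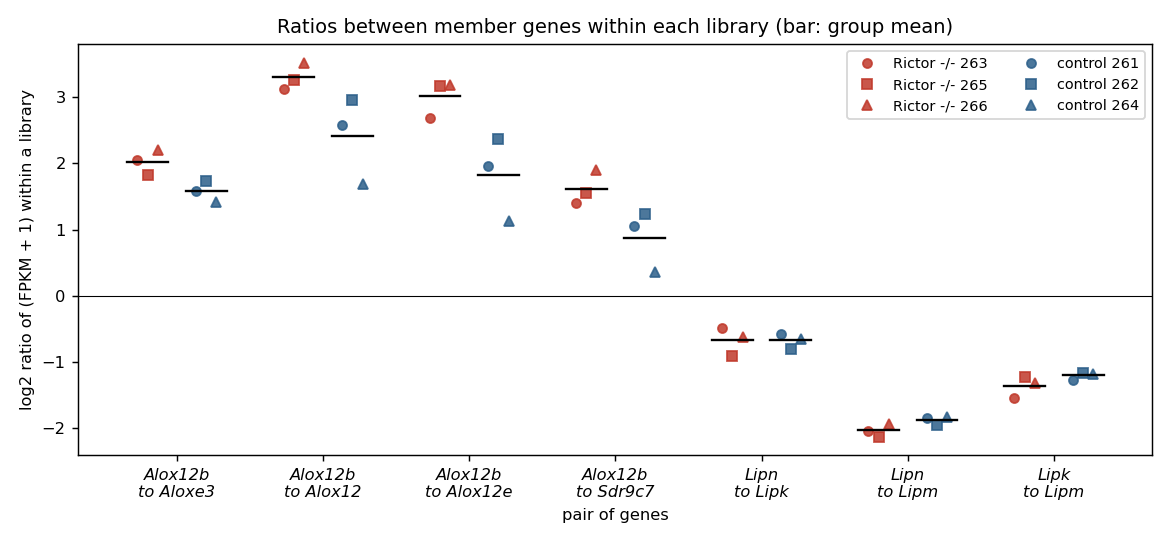
Log2 ratio of (FPKM + 1) between pairs of these genes within each library, Rictor -/- libraries in red left of control libraries in blue, with a bar at each group mean. The ratios of Alox12b to Aloxe3, Alox12, Alox12e and Sdr9c7 are higher in every knockout-labelled library than in any control, while the 3 ratios among the lipases overlap.

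The ratio to Ephx3, which the plot of ratios leaves out, overlapped. Alox12b was 2.73, 3.46 and 4.21 times Ephx3 in libraries 263, 265 and 266, against 3.38, 4.23 and 1.93 times in controls 261, 262 and 264. Without control 264 the log2 difference in the ratio was 0.47 for Sdr9c7 and 0.53 for Alox12, against 0.73 and 0.89 with it.

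Against markers of differentiating layers the ratio of Alox12b depended on the marker. In FPKM, every knockout-labelled library lay above every control for 1 of the 4 spinous markers, Krt10, and for 3 of the 5 granular markers, Lor, Flg and Flg2. The groups overlapped for Krt1, Dsg1a, Dsc1, Ivl and Cdsn. Alox12b was 0.808, 0.691 and 0.961 times Ivl in libraries 263, 265 and 266, against 0.867, 0.826 and 0.485 times in controls 261, 262 and 264. The log2 ratio of Alox12b to Krt10, the spinous layer keratin, averaged -6.35 ± 0.17 in knockout-labelled and -6.94 ± 0.41 in control libraries, and that to Lor, the granular layer protein loricrin, averaged -4.54 ± 0.32 in knockout-labelled and -5.28 ± 0.05 in control libraries (SD, n = 3 each). Neither pair of groups overlapped (exact permutation p = 0.10 each, 0.157 adjusted over the 11 ratios). Without control 264 the difference was 0.36 for Krt10, against 0.59 with it. Of the 5 granular markers Lor, Flg, Flg2, Ivl and Cdsn, 0 passed limma's test (1 lower at an unadjusted p under 0.05), and they summed to 4291 to 5738 FPKM in knockout-labelled and 4249 to 7537 FPKM in control libraries.

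The 3 lipases fell together. Lipn (ENSMUSG00000024770, chromosome 19, 34067358 to 34084918, plus strand) had the smallest p of the 9 tested genes, at 10.1, 10.97 and 11.2 FPKM in libraries 263, 265 and 266, against 15.9, 15.8 and 16.6 FPKM in controls 261, 262 and 264. The libraries of each group lay close together and far from the other group. It fell by 0.54 ± 0.06 on the log2 scale (limma adjusted p = 0.00357), to 0.667 times the control mean, and passed in all 20 alternative settings.

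Lipk (ENSMUSG00000024771, chromosome 19, 34008290 to 34047835, plus strand) stood at 14.5, 21.4 and 17.7 FPKM in libraries 263, 265 and 266, against 24.1, 28.1 and 26.6 FPKM in controls 261, 262 and 264. The groups did not overlap, but the knockout-labelled libraries were more scattered than for Lipn. It fell by 0.55 ± 0.14 (limma adjusted p = 0.0321), to 0.680 times the control mean. The call was lost without library 263 or 266 or control 261, 262 or 264 (limma adjusted p = 0.0722, 0.0910, 0.0591, 0.0815 and 0.0595), without a filter (0.0783), with a sex term (0.0640), after trimmed mean scaling (0.0512) and after adjustment for length and GC content (0.0895).

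Lipm (ENSMUSG00000056078, chromosome 19, 34100933 to 34122687, plus strand) was the most abundant lipase, at 44.2, 51.2 and 45.4 FPKM in libraries 263, 265 and 266, against 59.3, 64.0 and 61.2 FPKM in controls 261, 262 and 264. The groups did not overlap. It fell by 0.38 ± 0.08 (limma adjusted p = 0.0149), to 0.763 times the control mean, and the call was lost without library 263 or 266 (adjusted p = 0.0612 and 0.0626). Its exons overlap those of Ankrd22 on the opposite strand over 1219 of 3489 bases, and no source used here says whether strand was used in counting, so part of its value may be Ankrd22 reads. Ankrd22 stood at 18.6 ± 1.49 FPKM in knockout-labelled and 21.8 ± 2.76 FPKM in control libraries (SD, n = 3 each) and did not pass (log2 difference -0.21 ± 0.10, limma adjusted p = 0.178).

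Together the lipases summed to 68.7, 83.5 and 74.3 FPKM in libraries 263, 265 and 266, against 99.3, 108 and 104 FPKM in controls 261, 262 and 264. Every knockout-labelled sum lay below every control sum (exact permutation p = 0.10). Within a library, the log2 ratio of Lipn to Lipk was -0.67 ± 0.21 in knockout-labelled and -0.67 ± 0.11 in control libraries (SD, n = 3 each; exact permutation p = 1.0). The ratios of Lipn and of Lipk to Lipm differed by -0.16 each, with overlapping groups (exact permutation p = 0.20 each). The ratio of Lipn to Lor also overlapped, at -8.11 ± 0.24 in knockout-labelled and -7.91 ± 0.47 in control libraries (SD, n = 3 each; exact permutation p = 0.60). That difference was -0.21, and 0.06 without control 264.

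Over the 6 libraries, the log2 values of the genes that fell ran together, and since all share the difference between groups this is given only as a description. Pearson's r was 0.935 between the neighbours Alox12 and Alox12e, and 0.90 to 0.97 among the 3 lipases. Alox12b and Aloxe3 had an r of 0.623 with each other, and Alox12b had -0.861 with Alox12. Within the groups the genes that fell did not all run together. Among the knockout-labelled libraries 263 was the lowest for Alox12b, Aloxe3 and Lipk, with deviations from the group mean of -0.22, -0.24 and -0.27 on the log2 scale. Library 263 was also the lowest for Lipn, Lipm and Alox12 (-0.085, -0.081 and -0.048), but the highest for Alox12e and Ephx3 (0.106 and 0.1). Among the controls, 264 was the lowest for Alox12b and Aloxe3 (-0.45 and -0.29) and the highest for Alox12, Alox12e and Ephx3 (0.27, 0.25 and 0.19).

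Markers of other cells of the skin also differed between the groups. All 5 hair follicle markers fell (Krt33b, Krt35, Krt71, Krt72, Padi3), with sums of 387 to 465 FPKM in knockout-labelled and 720 to 891 FPKM in control libraries. So did 5 of 6 sebaceous gland markers (Far2, Awat2, Mc5r, Cidea, Scd3, Elovl3), with sums of 38.01 to 44.8 FPKM in knockout-labelled and 80.8 to 87.5 FPKM in control libraries, and the 4 tested of 5 myeloid markers, with sums of 22.9 to 24.6 FPKM against 33.4 to 41.6 FPKM in controls. Of the 4 basal keratinocyte markers Krt5, Krt14, Krt15 and Col17a1, 3 rose and 1, Krt15, fell, with sums of 11610 to 13560 FPKM in knockout-labelled and 7801 to 8353 FPKM in control libraries. Of the 4 spinous markers Dsg1a fell (-0.33 ± 0.09, limma adjusted p = 0.0465) and 3 did not pass. Of the 3 tested of 5 fibroblast markers Col1a1 rose (0.87 ± 0.20, limma adjusted p = 0.0251), while Col3a1 (0.86 ± 0.28) and Dcn (0.07 ± 0.14) did not pass. Dcn averaged 111 FPKM in knockout-labelled and 105 FPKM in control libraries. The 3 erythroid markers Hba-a1, Hbb-bs and Alas2 did not pass (limma, 2 lower at an unadjusted p under 0.05). They summed to 106 to 238 FPKM in knockout-labelled and 206 to 347 FPKM in control libraries. Fabp4, the 1 tested of 4 adipocyte markers, did not pass either (-0.36 ± 0.33). The part of these shifts in the falls of the lipases, Alox12, Alox12e and Sdr9c7 was not tested. Nor was their part in the differences of the listed genes given below, such as Fa2h.

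The genes lie in clusters. Aloxe3, Alox12b and Alox8 are neighbours on chromosome 11, Alox12 and Alox12e lie farther along it, and Lipk, Lipn and Lipm follow one another on chromosome 19 between Lipf, which was listed at 0 in every library, and Ankrd22. Of the 4 other tested protein-coding genes within 200 kb of the 3 lipases, 2 rose (limma), Stambpl1 (log2 difference 0.39) and the smooth muscle actin Acta2 (0.68), and 0 fell (0 also at an unadjusted p under 0.05). Acta2 averaged 1.84 FPKM in knockout-labelled and 0.799 FPKM in control libraries. It passed the filter only through its knockout-labelled mean, so its count gives no support. Around Alox12 and Alox12e, 1 of 11 tested neighbours rose (Pelp1, 0.27) and 1 fell (Rnasek, -0.24). Around Aloxe3, Alox12b and Alox8, 1 of 16 tested neighbours rose (Pfas, 0.31) and 3 fell (Vamp2, -0.35, Trappc1, -0.45, and Rnf227, -0.75). Among all tested genes 7.91% were called higher and 15.6% lower, and the neighbour counts were not tested against these shares. These neighbours were named after their values were seen.

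**Figure D4:**
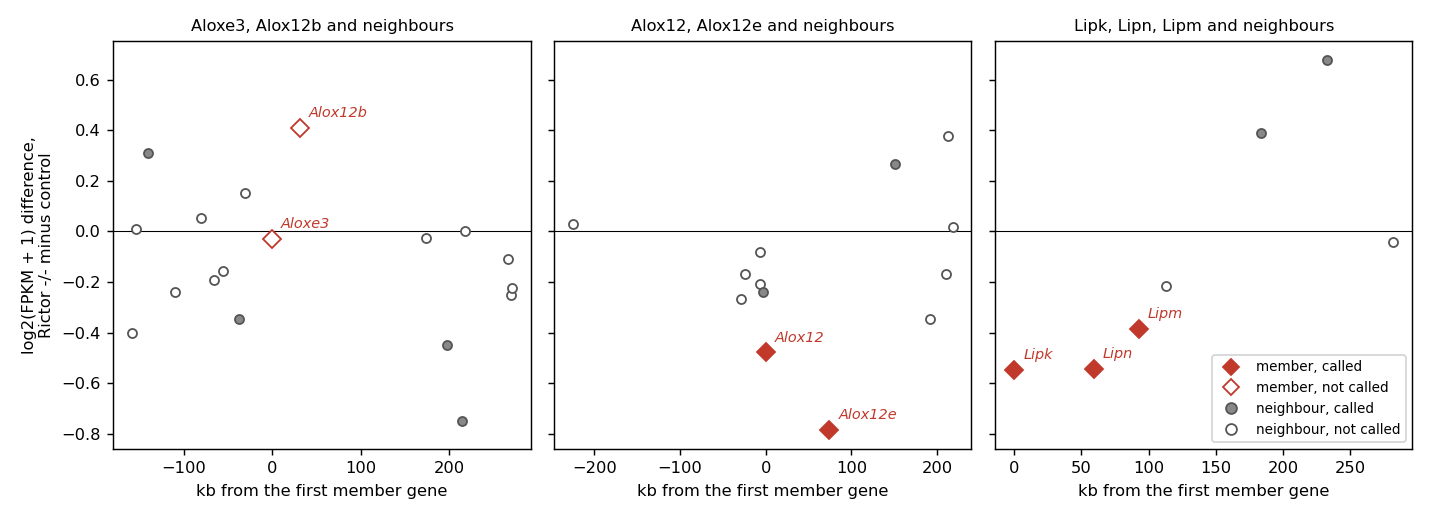
Difference in log2(FPKM + 1), Rictor -/- minus control, of tested protein-coding genes by distance in kb from the start of the first member gene of each cluster (Aloxe3, Alox12 and Lipk), with members as diamonds and neighbours as circles, filled where called. Alox12 and Alox12e at -0.48 and -0.79 and the 3 lipases at -0.55, -0.54 and -0.38 lie below their neighbours in the plot.

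The transcripts of these paralogs share few long words with other genes. Of the 50-base words in the longest GENCODE transcript, 0% occurred in a transcript of another gene for Alox12b, Alox12e, Sdr9c7, Lipn, Lipk and Lipm, and 0.13% to 0.98% for the others, in no case in another of the 10 genes. Each symbol had 1 row in the table.

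RefSeq gave a promoter window for 8 of the 10 genes on GRCm38.p6, which are those named here except Aloxe3 and Lipk. The windows of Lipn and Lipm are shown because these neighbours fell together, and those of Alox12 and Alox12e because they are the lipoxygenases that fell. Each runs up to 250 bases before the RefSeq start, less any bases that GENCODE places in the first exon, 5′ to 3′ on the strand of the gene, and capitals mark matches to the motifs searched.
Lipn, chr19:34067108-34067357, plus strand: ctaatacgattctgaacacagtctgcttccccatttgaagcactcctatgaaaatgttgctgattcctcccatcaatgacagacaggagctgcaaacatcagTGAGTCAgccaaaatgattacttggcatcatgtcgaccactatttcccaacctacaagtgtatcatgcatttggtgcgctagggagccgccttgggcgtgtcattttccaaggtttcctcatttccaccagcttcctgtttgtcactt
Lipm, chr19:34100693-34100932, plus strand: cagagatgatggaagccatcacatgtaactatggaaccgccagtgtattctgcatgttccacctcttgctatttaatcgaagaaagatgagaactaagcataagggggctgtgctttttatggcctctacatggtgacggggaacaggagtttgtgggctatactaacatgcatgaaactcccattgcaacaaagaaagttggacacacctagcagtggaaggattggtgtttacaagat
Alox12, chr11:70255371-70255620, minus strand: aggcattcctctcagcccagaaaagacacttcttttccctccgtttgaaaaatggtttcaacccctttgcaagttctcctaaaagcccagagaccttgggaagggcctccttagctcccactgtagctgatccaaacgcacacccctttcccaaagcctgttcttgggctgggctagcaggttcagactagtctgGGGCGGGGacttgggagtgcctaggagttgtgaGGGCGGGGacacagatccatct
Alox12e, chr11:70322629-70322780, minus strand: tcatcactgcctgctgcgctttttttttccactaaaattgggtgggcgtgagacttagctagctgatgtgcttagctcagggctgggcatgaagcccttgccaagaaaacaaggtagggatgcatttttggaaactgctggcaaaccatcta

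The 4 motifs, written as letters, were searched on both strands of the 250 bases before the start, and matches of the same motif may overlap. The AP-1 motif TGANTCA matched in 1 of the 8 promoters, that of Lipn, 148 bases before the start, and in 6.73% of 32536 promoters in all. The KLF-type motif CCNCNCCC matched in 5 of 8, Alox12b, Alox8, Alox12, Alox12e and Ephx3, and in 46.2% of all promoters. In Alox12 it matched in 2 places, both GGGCGGGG on the strand shown, and the match of Alox12e lies in the bases left off above. The C/EBP motif TTGCNNAA matched in that of Ephx3 and in 9.57% of all, and the GRHL motif AACCNGTT in 0 of 8 and in 1.79% of all. A match is a run of letters in this window and says nothing of binding.

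Genes around the lipoxygenase step went both ways. Of 17 tested genes of acylceramide synthesis and lipid secretion 5 rose and 5 fell, against 7.91% higher and 15.6% lower among all tested genes. Their median log2 difference was -0.02. Among the 4 with the smallest p, Tgm1, the transglutaminase of the cornified envelope, rose to 139 ± 10.3 FPKM in knockout-labelled libraries, against 87.5 ± 3.09 FPKM in controls (log2 0.66 ± 0.08), and Degs2 (0.82 ± 0.13), which makes phytoceramides, and Ugcg (0.43 ± 0.07), which glucosylates ceramide, rose as well. Fa2h, the fatty acid hydroxylase, fell to 11.1 ± 2.23 FPKM, against 26.0 ± 2.90 FPKM in controls (SD, n = 3 each). These 4 calls held in all 20 alternatives, while the count of falls ranged from 1 (without library 266) to 3 when any single library other than control 264 was left out. Cers3, of the same list, rose by 0.40 ± 0.07 (limma adjusted p = 0.01075), a call that also held in all 20 alternatives. Cyp4f39, the omega-hydroxylase, did not pass, at -0.02 ± 0.065, with a 95% interval of -0.18 to 0.13 (limma adjusted p = 0.806). Nor did Pnpla1, which transfers linoleate to the ceramide, at -0.15 ± 0.10, with a 95% interval of -0.38 to 0.09 (limma adjusted p = 0.310).

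Cyclooxygenases use free arachidonate, as Alox12 does. Of 10 tested genes of other lipoxygenases, cyclooxygenases and epoxide hydrolases 3 rose and 1 fell. The shares among all tested genes were 7.91% higher and 15.6% lower. The median log2 difference of the 10 was -0.04, and 1 of the 3 that rose, Ptgs2, entered through its knockout-labelled mean. Ptges, prostaglandin E synthase, stood at 57.3, 53.7 and 57.7 FPKM in libraries 263, 265 and 266, against 28.6, 31.8 and 23.0 FPKM in controls 261, 262 and 264, a rise of 1.0027 ± 0.12 (limma adjusted p = 0.00347). The inducible cyclooxygenase Ptgs2 stood at 2.20, 1.41 and 1.61 FPKM in libraries 263, 265 and 266, against 0.430, 0.262 and 0.315 FPKM in controls 261, 262 and 264, a rise of 1.03 ± 0.14 (adjusted p = 0.00556). Only its knockout-labelled mean reached 1 FPKM, so a gene passing the filter this way had to differ, and its count gives no support. Hpgd, the prostaglandin dehydrogenase, differed by 0.12 ± 0.12 and did not pass (limma adjusted p = 0.506). Ptgs1, the constitutive cyclooxygenase, rose by 0.42 ± 0.08, a call lost without library 263 or 266 (limma adjusted p = 0.0567 and 0.0626). Ephx2, the soluble epoxide hydrolase, fell by 0.54 ± 0.15, and that call was lost in 8 of 20 alternatives, among them leaving out 263, 265, 266 or control 262 (limma adjusted p = 0.122, 0.0636, 0.111 and 0.0618). Alox5 and Alox15 stood under 0.5 FPKM in every library.

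Of 8 tested lipases outside the 3 described, 3 fell and 1 rose, against 15.6% lower and 7.91% higher among all tested genes. Their median log2 difference was -0.31. Lipg, endothelial lipase, went against the others, at 9.08, 7.58 and 6.61 FPKM in libraries 263, 265 and 266, against 1.59, 1.53 and 2.75 FPKM in controls 261, 262 and 264 (log2 1.58 ± 0.18, limma adjusted p = 0.00328). Mgll, monoglyceride lipase, fell by 0.54 ± 0.11, Pnpla2, adipose triglyceride lipase, by 0.40 ± 0.11 and Liph, a phosphatidic acid lipase needed for hair growth in people, by 0.41 ± 0.12. The calls of Pnpla2 and Liph were lost in 11 and 13 of 20 alternatives, and that of Mgll without library 265 or 266 (limma adjusted p = 0.0505 and 0.0561). No fall of this list passed without 265 or 266, and 1 passed without 263, 261 or 262. Lipa, the lysosomal member of the acid lipase family, differed by -0.28 ± 0.10 and did not pass (limma adjusted p = 0.0908).

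**Figure D5:**
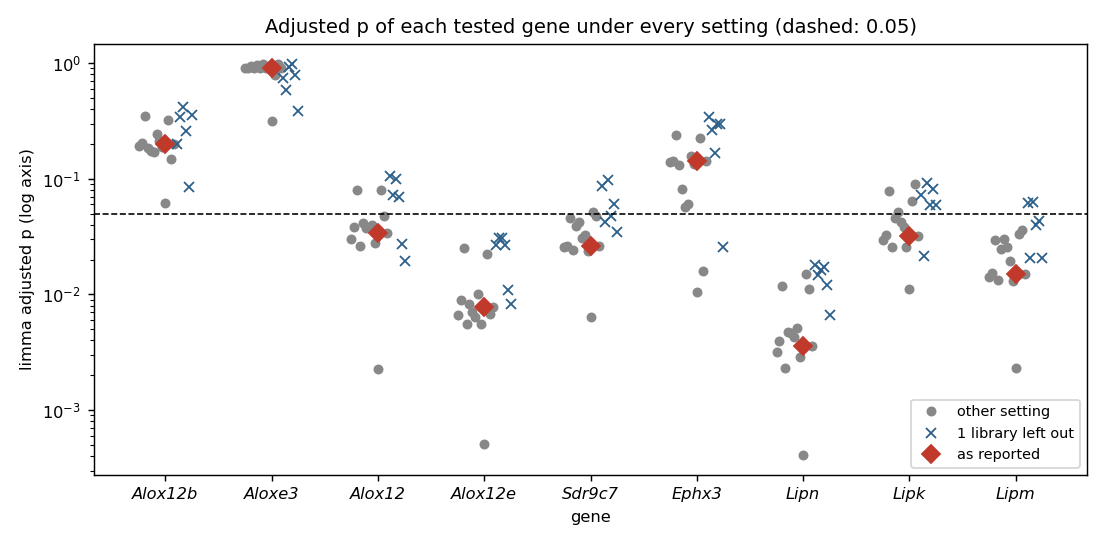
Limma adjusted p (log axis) of each of the 9 tested genes as reported (diamond), in 13 other settings (circles) and with 1 library left out (crosses), with 0.05 dashed. Alox12e and Lipn stay below the line throughout, Alox12, Sdr9c7, Lipk and Lipm lie below it as reported and above it in some settings, Ephx3 lies above it as reported and below it in 3 settings, and Alox12b and Aloxe3 stay above it.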

How the data were processed

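Per the labels' protocols, RNA was extracted from separated epidermis with an RNeasy column kit and libraries followed a standard Illumina preparation. CASAVA and Cufflinks were used with GRCm38, per the submitters' processing notes. Aligner, annotation and strand setting: not given in the sources used here. FPKM were deposited by the authors for 49452 gene rows, 1 column per library, per the file headers. FPKM are not counts, so no count model was used, and because they divide by the library total, a change in abundant genes moves all others. GENCODE M21 (GRCm38) supplied symbols, positions and lengths for 49109 identifiers; of rows sharing a symbol the highest was kept. Genes averaging 1 FPKM or more in one of the groups were fitted as log2(FPKM + 1) in limma 3.58.1 (R 4.3.3) with an intensity trend and no covariates. P-values are two-sided, adjusted by Benjamini-Hochberg over 13500 genes. Fold changes on this scale understate those of low genes. Ratios within a library used exact permutation tests. The fit was tested on simulated data. The members and lists were chosen with earlier results of these data known. Named genes are the 10 members, the called genes of each list (the 4 with the smallest p where more were called), and the 3 genes most like each member. Uncalled genes of the lists, Cers3 and markers that are named fall outside this rule and were chosen after their values were seen. The ratios of Alox12b and Alox12e to Alox12 and Alox12e, the share of Alox12b, its ratios to Ephx3 and single markers and the word overlap were added after seeing the data, as were the neighbours. Sts, of the acylceramide list, was not analysed here.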

Additional observations from a re-analysis of the deposited data

How the results depend on the processing

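There were 20 alternatives: pseudocounts of 0.1 and 5, no filter, a minimum of 5 FPKM, 3 scalings, 3 variance or weighting models, a sex term, a length and GC adjustment, summed rows, a threshold of 0.10 and each library left out. Alox12e and Lipn were called lower in all of them, Lipm in 18, Sdr9c7 in 16, Alox12 in 14 and Lipk in 11, and none of these 6 changed sign. These counts include alternatives that could not lose such a call. The threshold of 0.10 uses the fit as reported, and summing rows leaves the values of a gene with no other row as they were. After length and GC adjustment the log2 differences of these 6 were smaller in size. They were then -0.68 for Alox12e, -0.39 for Lipn, -0.39 for Alox12, -0.41 for Lipk, -0.30 for Lipm and -0.23 for Sdr9c7. Of the 9 tested genes the number called lower was 3 with a sex term and 2 to 5 with 1 library left out (2 without 263 or 266). The number called higher was 1, Ephx3, with array weights, after length and GC adjustment and without control 264, and 0 without any other single library. Aloxe3, never called, changed sign after median scaling (0.0143), trimmed mean scaling (0.0307), quantile normalization (0.004) and length and GC adjustment (0.0054), and ranged from -0.1741 to 0.092 with 1 library left out. Over all tested genes 2335 were higher and 3937 lower with array weights, 634 and 1218 with a sex term, and 1673 higher after length and GC adjustment, against 1068 and 2101 as reported. With 1 library left out 477 to 1514 were higher and 985 to 2270 lower. The cause was not tested. No paired analysis was possible because the groups share no replicate numbers. FPKM give no read counts, so counting error of low genes such as Alox8 is not known.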

Other observations

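For each tested gene the 3 protein-coding genes with the most similar log2 values over the 6 libraries are given as a description. The points share their libraries and the difference between groups, and Pearson's r ran from 0.9845 to 0.9996, these being the highest values found. Lipn was followed most closely by Heph, which encodes the ferroxidase hephaestin, Slc35d2 and Oas1c, and all 3 were called lower. Alox12e was followed by Mt4, the metallothionein of stratified epithelia, Khk, which encodes ketohexokinase, and Tmem265, also all called lower. The genes most like Alox12 were Tmem45a, Rpl36a and the chemokine Xcl1, those most like Sdr9c7 were Sft2d3, Ppp2r3c and Lyrm2, and those most like Lipm were Rnf227, Fbxw5 and Chchd5. Lipk was followed by Cdk5rap3, Sox4 and Arhgap12. Of the genes most like Alox12, Sdr9c7, Lipm and Lipk, Rpl36a, Ppp2r3c, Sox4 and Arhgap12 were not called, and the rest were called lower. In all, 14 of the 27 like genes were called lower and 0 higher, against 15.6% lower and 7.91% higher among all tested genes. Because the like genes were picked for following the members, the direction of these calls follows largely from that choice and gives no support. The genes most like Alox12b (Arhgap32, Plag1, Kank1), Aloxe3 (Arl4c, Col5a2, Gtf2a1) and Ephx3 (Ier5l, Cep83, Tnfrsf18) were not called.

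Gpx4, the glutathione peroxidase that reduces lipid hydroperoxides, was chosen here after its values were seen. It stood at 108, 786 and 363 FPKM in libraries 263, 265 and 266, against 1750, 1791 and 896 FPKM in controls 261, 262 and 264. The groups did not overlap, but the knockout-labelled libraries differed among themselves more than for any of the 9 tested member genes. Its log2 difference was -2.16 ± 0.69 and did not pass (limma adjusted p = 0.0629). It passed with array weights and without library 265 (limma adjusted p = 0.00803 and 0.0329).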
